A study of Mus musculus with 12 samples.

Results

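The mouse line RAW264.7, whose cells resemble macrophages and stem from a virus-induced tumour, was given LPS and an antibody against CD36 together, and its RNA was compared with that of untreated cells of the line. The doubly treated group held 3 libraries and so did the untreated group, of 12 libraries in all. Doubly treated cells had LPS at 50 ng/ml and the antibody at a dilution of 1 in 100, and the other 6 libraries came from cells given only 1 of these at the same dose, 3 with LPS and 3 with the antibody. All were labelled wild type and all came from the 1 line. The labels gave no treatment time and listed no isotype control antibody. Whether replicates were separate cultures is not labelled, so the p-values measure only the spread between libraries. Genes were kept when they reached 1 FPKM (fragments scaled to gene length and to library depth) in at least 3 of the 12 libraries, which left 10276 of 31719 gene symbols, and all comparisons run over these. Il6 was left out, because its values in the untreated and anti-CD36 libraries were those of another entry of the table.

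LPS, a lipid of the outer membrane of Gram-negative bacteria, is carried by CD14 to the receptor TLR4. The receptor signals through adaptor proteins to NF-kB and AP-1 factors, which switch on cytokine and chemokine genes, and to interferon regulatory factors, whose product interferon beta then acts back on the cell. CD36 is a scavenger receptor of macrophages that takes up oxidised lipoproteins and long-chain fatty acids and can also pass signals to the cell. Activated macrophages are known to slow their division and to change how they handle glucose, lipid and iron.

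Depth, recovered from the steps between the deposited values, ran from 36861331 to 48637090 fragments in the doubly treated libraries and from 30070450 to 54137811 in the untreated ones. Between 14212 and 14878 genes were above 0 per library over the whole series. Across genes, the median SD between the 3 doubly treated libraries was 0.077 on the log2(FPKM + 1) scale, against 0.151 in untreated cells and 0.177 with LPS alone. Untreated replicate 3 lay farthest from its group mean among the 6 libraries compared here, by a root mean square of 0.213. Macrophage genes were present in every library: Lyz2, which encodes lysozyme, stood at 3567, 3179 and 2675 FPKM in untreated and 4187, 4103 and 3871 FPKM in doubly treated cells. Of 85 markers of neutrophils, lymphocytes, dendritic cells, mast cells, fibroblasts, epithelium and endothelium, 41 were at 0 in all 6 libraries and 4 (Bst2, Csf3r, Ighm and Lck) reached 1 FPKM in any. Of the 4, Csf3r was not called, and Bst2 (153 to 227 FPKM at rest, 586 to 712 after both agents), Ighm (41.2 to 43.4 and 66.6 to 70.2) and Lck (1.69 to 2.33 and 5.73 to 6.59) rose. The part of such markers in the results was not tested. Because the samples are bulk RNA, fewer cells of a kind and less RNA per cell cannot be told apart in any result below.

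Double treatment left 53.0% of the measured genes at a different level. By limma's moderated test on log2(FPKM + 1), with Benjamini-Hochberg adjustment over 10276 genes and a threshold of 0.05, 5442 genes were called. Of these, 1838 were higher (17.9%) and 3604 were lower (35.1%), and the median over all genes was −0.14. The groups did not overlap for 6458 genes (62.8%). At least 2-fold changes were called for 1051 genes (10.2%), 543 higher and 508 lower. That balance turned with the setting: it was 697 higher and 843 lower with a pseudocount of 0.1, 617 and 657 with 0.5, 566 and 994 with TPM and 654 and 345 with median-of-ratios scaling. On the log2(FPKM + 1) scale larger changes were mostly increases: 187 genes rose and 29 fell by at least 4-fold, and 40 rose and 0 fell by at least 16-fold. That scale shrinks falls that end near 0 FPKM, and these counts were not taken at other pseudocounts. The balance of direction depended on scaling. With median-of-ratios scaling 2562 genes were higher and 2517 lower, with a median change of 0.00, and with TPM 1431 were higher and 4344 lower, with a median of −0.28. Small changes of single genes should therefore be set beside the median of all genes, which is not subtracted below. Counts of a list are likewise to be set beside the 17.9% higher and 35.1% lower over all genes. Where a gene is given below with its 3 values per group, in the order of the replicates, and is said to have risen or fallen, the 2 groups did not overlap. A change given as a single number is the difference in log2(FPKM + 1). Folds of genes near 0 in either group, at rest or after treatment, are understated on that scale.

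**Figure D1:**
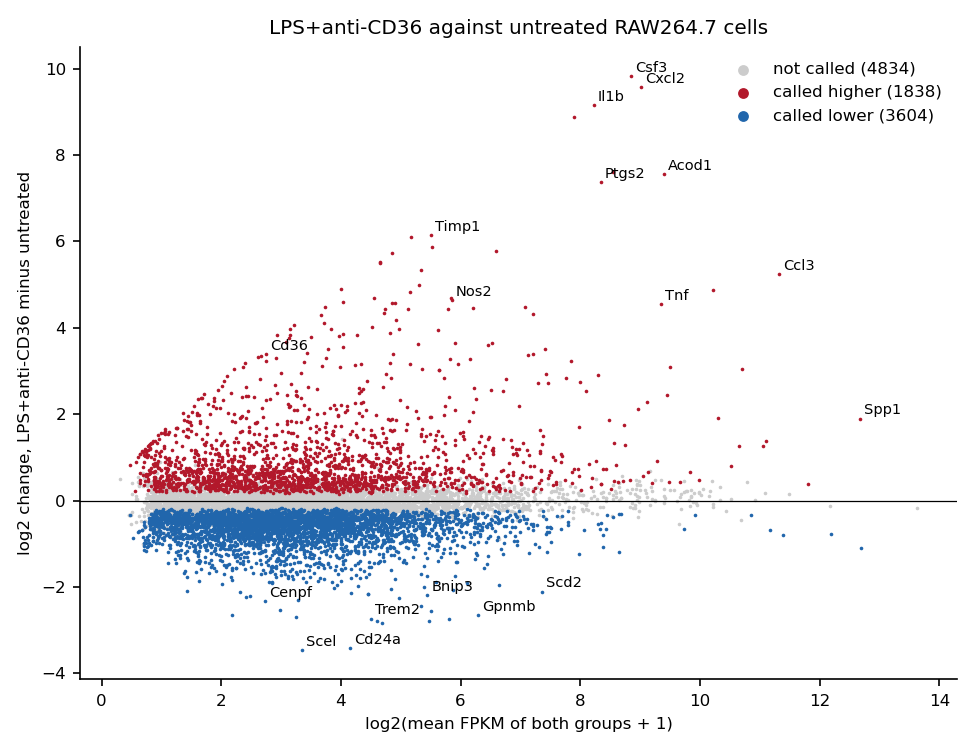
Each point is 1 of 10276 genes, with its mean level in both groups on the horizontal axis (log2 of FPKM + 1) and its log2 change in LPS+anti-CD36 against untreated cells on the vertical axis. The largest increases reach 9.83 (Csf3) and the largest decrease −3.47 (Scel).

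Of the genes closest to the treatment, the target of the antibody was itself among those that rose. Cd36 (chromosome 5, 17781690 to 17888801 in the GENCODE M21 annotation of GRCm38) stood at 0.123, 0.195 and 0.193 FPKM in the untreated libraries and at 10.4, 10.9 and 12.3 FPKM in the doubly treated ones. The groups were far apart: the log2 change was 3.38 ± 0.14 (SE, n = 3 libraries per group), with an adjusted p of 2.05e-09 by limma. With LPS alone the level was 4.40, 5.85 and 7.33 FPKM and with the antibody alone 0.411, 0.471 and 0.256 FPKM, and doubly treated cells were higher than LPS cells by 0.85 (adjusted p = 0.00215). Tlr4, the LPS receptor, went the other way, from 8.82, 9.43 and 12.8 FPKM to 3.52, 3.89 and 4.53 FPKM. No untreated library was as low as any doubly treated one (log2 change −1.18, adjusted p = 0.000124), and LPS alone left it at 5.13, 7.81 and 8.28 FPKM. Cd14, which hands LPS to TLR4, rose from 584, 559.6 and 444 to 2081, 2008 and 1873 FPKM (log2 change 1.92).

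Secreted signals included the 3 largest increases, Csf3, Cxcl2 and Il1b. Together the 55 cytokine and chemokine genes of the lists took 0.150 to 0.167% of all FPKM in untreated libraries and 4.12 to 4.24% in doubly treated ones. With LPS alone the share was 3.00 to 3.30%. Of 32 listed inflammatory cytokines 24 passed the filter. Of these 24, 22 rose and 0 fell, with a median log2 change of 2.84, and Il15 and Il16 were not called. Of 23 listed chemokines 14 passed. Of these 14, 13 rose and 0 fell, with a median of 4.61, and Cxcl14 was not called. The filter counts treated libraries, so genes under 1 FPKM at rest could pass only through treated groups. Counts and medians of these lists therefore lean towards rises, and so do those of other lists with genes low at rest.

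Csf3, the granulocyte colony-stimulating factor, was almost silent in resting cells, at 0.0131, 0 and 0 FPKM. After double treatment it reached 985, 931 and 838 FPKM (log2 change 9.83 ± 0.14 SE, adjusted p = 2.13e-13). Csf2, the growth factor for granulocytes and macrophages, went from 0, 0.0416 and 0.0692 to 69.8, 71.5 and 68.2 FPKM. Both genes thus went from under 0.1 FPKM in every resting library to well above it in every treated one. The interleukin-1 pair behaved alike: Il1a went from 0.0281, 0 and 0 to 442, 466 and 522 FPKM and Il1b from 0.0678, 0.0484 and 0.0290 to 576, 575 and 638 FPKM. The Il1b value of untreated replicate 2 equals the mean of the other untreated values and is not a whole number of fragments, so its untreated SD is too small.

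Tnf, the early cytokine of the LPS response, was already expressed at rest, at 53.6, 55.5 and 48.4 FPKM, and stood at 1315, 1253 and 1186 FPKM after double treatment. Its log2 change was 4.55 (adjusted p = 9.88e-12), and it did not differ detectably from LPS alone (1326, 1134 and 1067 FPKM, difference 0.10, 95% interval −0.12 to 0.31, adjusted p = 0.513). Il27, a cytokine that steers T cells, rose from 0.326, 0.586 and 0.732 to 95.1, 93.3 and 80.9 FPKM, and Lif, of the interleukin-6 family, from 0.0510, 0.0306 and 0.102 to 59.5, 52.6 and 54.8 FPKM. Lta, lymphotoxin alpha, was at 0.174, 0.0481 and 0.200 FPKM at rest and at 25.3, 24.4 and 24.2 FPKM after both agents.

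Among chemokines, Cxcl2, which draws neutrophils, rose from 0.250, 0.386 and 0.442 to 1138, 1036 and 934 FPKM (log2 change 9.57, adjusted p = 1.08e-14). Ccl5, which draws T cells and monocytes, rose from 3.16, 2.84 and 2.45 to 792, 747 and 679 FPKM, and Ccl22 from 2.41, 2.80 and 2.14 to 204, 183 and 178 FPKM. In none of these did a resting library come near a treated one. Ccl3 and Ccl4 were the chemokines of highest level: Ccl3 went from 144, 133 and 115 to 5038, 4977 and 4896 FPKM and Ccl4 from 94.2, 78.1 and 62.6 to 2425, 2359 and 2154 FPKM. The interferon-induced chemokine Cxcl10 stood at 71.6, 79.2 and 83.9 FPKM against 1.06, 1.05 and 0.811 at rest, and Ccl17 at 37.2, 28.8 and 24.2 against 0.0359, 0.0647 and 0.

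**Figure D2:**
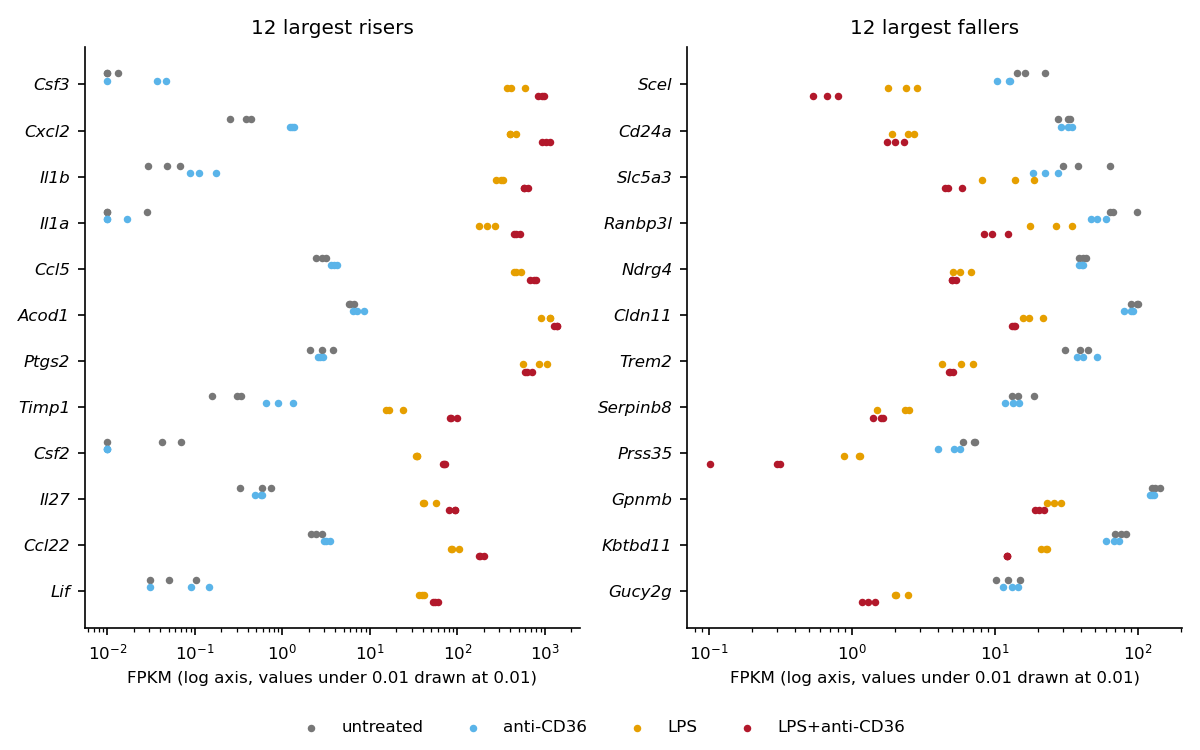
FPKM in each of the 12 libraries, on a log axis, for the 12 genes that rose most and the 12 that fell most in LPS+anti-CD36 against untreated cells. For Csf3 the untreated libraries lie at or below 0.0131 FPKM and the doubly treated ones between 838 and 985, and for Scel the order is turned, at 14.4 to 22.4 FPKM untreated and 0.531 to 0.797 after treatment.

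NF-kB and AP-1 motifs are known in the promoters of such genes, and promoter windows of RefSeq (build GRCm38.p6, 250 bases before to 50 after the start, the window farthest upstream per symbol) were matched for 8042 of the 10276 genes. An NF-kB motif on either strand was in 15.4% of the 428 windows of genes at least 2-fold higher, in 11.4% of the 394 at least 2-fold lower and in 10.1% of all. For the AP-1 motif TGANTCA the shares were 12.4%, 4.82% and 4.65%. In the 26 windows of cytokine and chemokine genes the NF-kB and AP-1 shares were 34.6% and 23.1%. In the 43 windows of interferon-stimulated genes they were 16.3% and 25.6%, so the AP-1 share was not particular to secreted signals. Over all 27025 windows, of tested genes or not, they were 8.19% and 7.92%. These are matches of letters and not measured sites. The windows of Cxcl2 and Lif, among the largest risers, show such matches and are printed with each match in capitals. Il1a also held an AP-1 match, while the windows of Il1b, Acod1, Ptgs2, Timp1, Csf2 and Ccl22 held neither motif. Among the 12 largest fallers, AP-1 matches were in the windows of Scel, Trem2, Serpinb8 and Gpnmb and an NF-kB match in that of Prss35. In Cxcl2 (chr5:90903649-90903948, plus strand) 2 overlapping NF-kB matches span −97 to −87 from the start. In Lif (chr11:4257318-4257617, plus strand) the AP-1 match spans −228 to −222 and the NF-kB match −178 to −169.
Cxcl2: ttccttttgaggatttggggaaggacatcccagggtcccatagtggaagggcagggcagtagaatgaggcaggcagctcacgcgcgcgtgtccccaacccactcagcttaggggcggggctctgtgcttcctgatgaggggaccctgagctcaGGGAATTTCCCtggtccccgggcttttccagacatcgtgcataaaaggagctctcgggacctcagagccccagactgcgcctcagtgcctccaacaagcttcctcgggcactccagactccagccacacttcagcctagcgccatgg
Lif: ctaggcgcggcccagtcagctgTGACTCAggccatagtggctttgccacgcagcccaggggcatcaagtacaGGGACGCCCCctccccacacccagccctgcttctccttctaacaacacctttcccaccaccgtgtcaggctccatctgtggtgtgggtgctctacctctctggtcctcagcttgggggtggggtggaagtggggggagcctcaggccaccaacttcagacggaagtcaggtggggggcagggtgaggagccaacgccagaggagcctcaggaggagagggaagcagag

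Enzymes that remodel the matrix and the proteins that restrain them rose in 9 of 13 tested cases and fell in 2, with a median of 1.67. Timp1, an inhibitor of matrix metalloproteinases, went from 0.333, 0.300 and 0.156 to 99.4, 84.5 and 81.6 FPKM (log2 change 6.14, adjusted p = 7.67e-11), and with LPS alone it stood at 24.2, 16.5 and 15.1 FPKM. Mmp9, a gelatinase, rose from 0.710, 0.780 and 0.782 to 45.4, 47.0 and 40.6 FPKM. Plaur, the receptor of the protease urokinase, rose by 3.64, while Plau, which encodes urokinase itself, fell by 0.87. The sheddase gene Adam10 fell from 85.5, 103 and 137 to 25.4, 27.4 and 30.3 FPKM. Among acute phase and iron genes 9 of 15 rose and 1 fell (median 0.72). Lcn2, a protein that binds bacterial iron carriers, stood at 0.0704, 0.0761 and 0.0633 FPKM at rest and at 48.0, 48.9 and 47.2 FPKM after both agents. With LPS alone it reached 14.6, 9.87 and 9.61 FPKM, under every doubly treated library. Saa3, an acute phase protein, and Slpi, a protease inhibitor, rose by 4.10 and 3.60. The iron exporter of the phagosome, Slc11a1, rose by 2.04, and the ferritin heavy chain Fth1 from 1102, 983 and 777 to 2462, 2309 and 2061 FPKM. Ireb2, an iron-sensing RNA-binding protein, fell by 0.68.

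Receptor lists differed in their direction. Of 15 toll-like receptors and helpers, 4 rose and 6 fell, with a median of −0.21, beside 17.9% higher and 35.1% lower over all genes. Besides Tlr4, the RNA sensors Tlr7 and Tlr13 fell, Tlr7 from 31.2, 33.8 and 44.2 to 12.9, 13.4 and 15.4 FPKM and Tlr13 from 10.4, 11.2 and 15.5 to 2.34, 3.29 and 3.30 FPKM. All 3 were also lower than with LPS alone (differences −0.68, −0.75 and −1.31). Tlr1 rose from 2.44, 2.70 and 3.57 to 8.92, 10.3 and 11.5 FPKM, and Tlr2, at 50.4 ± 0.692 FPKM against 43.3 ± 0.468 (SD, n = 3), was not called. The test takes each gene's spread from all 12 libraries and not from these SDs alone, so Tlr2 is not shown to be unchanged.

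Of 8 scavenger receptors 4 rose and 3 fell. Msr1, the class A receptor, rose from 16.1, 16.9 and 19.4 to 63.7, 69.7 and 76.4 FPKM, while Lrp1 and Scarb1, which take up lipoproteins, fell by 1.01 and 0.76. Among 21 markers of lipid-laden macrophages 9 rose and 5 fell. Fabp4, a fatty acid carrier, rose from 1.85, 1.60 and 1.09 to 24.9, 22.5 and 23.2 FPKM and Axl, a receptor for dying cells, by 1.63. Trem2, a lipid-sensing receptor, and Gpnmb, a glycoprotein of lysosomes, fell: Trem2 from 45.2, 39.6 and 30.9 to 4.85, 4.78 and 5.08 FPKM and Gpnmb from 132, 142 and 127 to 22.2, 20.5 and 19.1 FPKM. Genes of the same list thus ended up on opposite sides of the resting level.

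Of 20 Fc gamma receptors and their kinases 13 rose and 5 fell, with a median of 0.59. The activating receptor Fcgr4 rose by 2.08, the inhibitory Fcgr2b by 1.82 and the kinase Fgr by 1.65, while Fcgr3 fell by 1.43 and Sirpa, an inhibitory receptor, by 1.11. Of 22 complement, formyl peptide and chemokine receptors 18 rose and 2 fell (median 1.07). C5ar1, through which the complement fragment C5a acts, went up from 4.85, 4.65 and 4.28 to 53.3, 49.0 and 47.3 FPKM. C3ar1, Gpr18 and Ccrl2 rose by 2.14, 2.19 and 3.23, and the oxysterol receptor Gpr183 and the ATP-gated channel P2rx7 fell by 1.04 and 0.85. Cytokine receptors split into 11 higher and 9 lower of 28. Tnfrsf1b, a receptor for TNF, rose from 1.84, 2.67 and 1.98 to 57.5, 57.0 and 54.2 FPKM. Il6ra fell from 8.28, 8.69 and 9.04 to 2.05, 1.80 and 2.12 FPKM and Csf1r, the receptor for the macrophage growth factor, from 207, 224 and 218 to 145, 139 and 139.8 FPKM.

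Molecules that macrophages use to address T cells rose in 12 of 15 cases and fell in 2, with a median of 1.00. Cd40 went from 0.353, 0.264 and 0.268 to 32.9, 31.1 and 27.0 FPKM (log2 change 4.59, adjusted p = 1.09e-10), and Icosl, Vsir and Lgals9 rose by 1.99, 1.62 and 2.53. Cd276 and Havcr2, an inhibitory ligand and receptor, fell by 1.68 and 1.50. Of 19 integrins and adhesion genes 9 rose and 6 fell. The leukocyte integrin chains Itgal, Itgam and Itgb2 rose by 2.10, 2.27 and 1.26, and Itga5 by 1.66, while Itgb5 fell by 1.31. Cd24a, a small glycoprotein of the cell surface, fell from 32.6, 33.5 and 27.8 to 2.02, 1.76 and 2.30 FPKM, and stood at 2.72, 1.91 and 2.48 FPKM with LPS alone.

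Between the receptor and the genes it controls lie adaptors, kinases, the NF-kB subunits and their inhibitors. Of 28 TLR adaptors and kinases 9 rose, 6 fell and 13 were not called, with a median of −0.14, the same as over all genes. The count of 6 was 3 without untreated replicate 3, 3 without LPS+anti-CD36 replicate 1 or 2, 3 with median-of-ratios scaling and 10 with a block on replicate number. Irak2, Irak3, Traf1 and Ikbke rose by 2.53, 1.91, 2.58 and 2.71, Irak1 fell by 0.54, and the adaptor Myd88, at 30.3 ± 2.73 FPKM against 34.8 ± 4.60, was not called. Of 11 NF-kB and IkB genes 10 rose and 0 fell (median 1.51). Nfkbia, the inhibitor of NF-kB that NF-kB itself induces, rose from 50.3, 45.4 and 40.5 to 342, 304 and 268 FPKM, and Nfkbiz from 2.13, 2.54 and 3.16 to 48.6, 52.3 and 54.3 FPKM. Nfkb2 and Bcl3 rose by 2.25 and 2.42. Rela, the constitutive subunit, was not called, at 13.5 ± 0.320 FPKM against 14.7 ± 0.997.

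Of 24 negative regulators 15 rose and 4 fell (median 0.92). Il1rn, which encodes the interleukin-1 receptor antagonist, rose from 10.9, 11.7 and 9.06 to 259.6, 264 and 249 FPKM and Socs3, a brake on cytokine receptors, from 1.51, 1.46 and 1.28 to 60.5, 56.02 and 53.7 FPKM. Zfp36 and Zc3h12a, which destroy cytokine mRNA, rose by 3.03 and 3.14, whereas Rc3h1, another protein of that kind, and the deubiquitinase Cyld fell by 0.86 and 0.45. Of 25 AP-1, EGR and NR4A factors 17 rose and 5 fell (median 0.88). Atf3 went from 4.63, 5.03 and 5.06 to 35.1, 34.1 and 34.2 FPKM and was at 84.3, 77.8 and 82.0 FPKM with LPS alone, so that double treatment ended between the resting and the LPS level. Myc rose by 2.38 and Maff by 1.91. Nr4a1, a nuclear receptor of the early response, rose from 1.17, 1.25 and 0.876 to 7.76, 6.64 and 6.91 FPKM, with 2.65, 2.33 and 2.65 FPKM under LPS alone. Egr3 and Bhlhe40 fell by 1.45 and 1.18. Of 14 dual-specificity phosphatases and relatives that damp MAP kinases 7 rose and 4 fell, led by Dusp5 (3.84) and Dusp2 (2.61), with Spred2 and Dusp3 lower by 0.66 and 0.36.

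Of 55 interferon-stimulated genes 48 rose and 0 fell, with a median of 1.35. The nucleic acid sensor Zbp1 rose from 1.76, 1.55 and 0.769 to 56.2, 55.6 and 51.9 FPKM, and Ifi204, another such sensor, from 2.36, 2.50 and 3.30 to 51.5, 56.7 and 65.2 FPKM. Slfn2 rose from 45.5, 45.7 and 40.3 to 414, 418 and 416 FPKM and Slfn1 by 2.46. Members of the Slfn and Ifi200 families have near-identical relatives, and how the authors' counting split such reads is not given. Ifitm3, a membrane protein that blocks virus entry, was among the most abundant mRNAs and rose from 1585, 1266 and 962 to 3198, 2995 and 2767 FPKM. The motif GAAANNGAA, on either strand, was in 55.8% of the 43 windows of this list and in 7.37% of all.

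Of 9 guanylate-binding proteins and related GTPases, which attack the vacuoles of pathogens, 8 rose and 0 fell (median 1.22), among them Gbp3 from 0.487, 0.509 and 0.560 to 18.7, 19.8 and 21.8 FPKM and Gbp2 from 0.117, 0.145 and 0.143 to 10.2, 10.6 and 10.7 FPKM. Gbp2b and Gbp5 rose by 2.57 and 1.07. Of 25 JAK, STAT, SOCS and IRF genes 11 rose and 4 fell. Irf7 and Irf8, factors of the interferon and myeloid programmes, rose by 2.82 and 2.09, and Stat6 and Irf2 fell by 0.31 and 0.45. Genes for class I antigen presentation rose in 17 of 22 cases and fell in 0 (median 0.82), with Tap1, Tap2, Psme1 and H2-T22 up by 1.11, 1.06, 1.15 and 1.62. The 5 tested class II genes split, with Cd74 and Ctss up by 0.88 and 0.46 and Lgmn and Ifi30, a protease and a thiol reductase of lysosomes, down by 1.29 and 0.93.

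Among effector enzymes, 7 of 16 genes of nitric oxide, arginine and polyamines rose and 3 fell, with a median of 0.10. Nos2, the nitric oxide synthase that inflammation induces, rose from 3.20, 3.66 and 3.49 to 111, 110.4 and 109.6 FPKM (log2 change 4.65, adjusted p = 2.9e-12). With LPS alone it stood higher, at 211, 182 and 170.2 FPKM, and the 2 sets of libraries did not overlap. Ass1, which regenerates arginine, and Gch1, which makes the cofactor of the synthase, rose by 1.87 and 2.32, and Odc1, the first enzyme of polyamine synthesis, from 365, 374 and 345 to 2978, 2989 and 2943 FPKM. Amd1, which supplies the aminopropyl groups for polyamines, fell by 0.80. Ptgs2, the inducible cyclooxygenase, rose from 2.08, 2.86 and 3.80 to 589, 631 and 708 FPKM and Ptges, which makes prostaglandin E2 from its product, from 0.160, 0.271 and 0.162 to 4.37, 4.74 and 4.86 FPKM. These were the 2 risers among 14 prostaglandin and leukotriene genes, of which 8 fell. Hpgd, which breaks prostaglandins down, fell from 15.7, 13.8 and 16.2 to 2.26, 2.29 and 2.30 FPKM and Alox5, the leukotriene-forming lipoxygenase, from 12.7, 13.5 and 13.5 to 3.18, 3.04 and 2.96 FPKM.

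Of 17 inflammasome genes 9 rose and 2 fell (median 0.67). The sensor Nlrp3 rose from 10.8, 11.9 and 13.4 to 48.1, 46.3 and 45.8 FPKM, the LPS-binding caspase Casp4 by 1.70 and the cytokine precursor Il18 by 1.65, while Nek7, a partner of Nlrp3, fell by 0.91. Of 30 apoptosis and survival genes 13 rose and 6 fell. The survival genes Bcl2a1a, Bcl2a1d and Bcl2a1b rose by 4.44, 2.85 and 2.22, but they are near copies of each other and their reads can be split in more than 1 way. Pim1, a survival kinase, rose from 3.34, 3.34 and 2.66 to 36.5, 34.7 and 35.2 FPKM, and Bmf, which promotes cell death, fell from 2.49, 2.58 and 2.61 to 0.568, 0.359 and 0.348 FPKM.

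Acod1, which makes the antimicrobial compound itaconate, rose from 5.74, 5.997 and 6.52 to 1269, 1368 and 1389.8 FPKM (log2 change 7.57, adjusted p = 5.68e-13). It was the only riser among 27 genes of the itaconate and citric acid cycle list, of which 13 fell, or 7 with median-of-ratios scaling. Idh1, Mdh1 and Pdk1 fell by 0.76, 0.61 and 1.46. Of 24 genes of glycolysis 11 fell and 3 rose, with a median of −0.26, beside 35.1% lower and 17.9% higher over all genes. With the block and the GC and length trend together 7 rose. The phosphofructokinases Pfkl and Pfkm fell by 1.07 and 1.18, while the glucose carriers Slc2a1 and Slc2a6 rose by 0.73 and 0.99. Of 9 pentose phosphate genes 3 rose (among them Rpe by 0.28 and Shpk by 0.28) and 3 fell (among them Pgd by 0.37 and Rpia by 0.38), all by less than 2-fold.

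Of 27 genes of the hypoxia-inducible factor and its known targets, 17 were lower and 6 higher in doubly treated cells than at rest, with a median of −0.46. Bnip3, a mitophagy receptor, fell from 72.3, 72.4 and 66.5 to 11.9, 15.8 and 16.8 FPKM (log2 change −2.19, adjusted p = 1.55e-08), and its relative Bnip3l from 29.6, 31.6 and 35.1 to 7.99, 9.02 and 9.25 FPKM. Ndrg1, a stress-induced gene, fell from 14.3, 15.6 and 14.5 to 4.77, 4.86 and 4.26 FPKM and Ankrd37 by 1.59. For Bnip3 and Ndrg1, cells given LPS alone lay on the other side of the resting level, at 80.6, 87.0 and 88.6 and at 24.7, 22.7 and 20.8 FPKM. In cells given the antibody alone Bnip3 was at 48.1, 51.9 and 50.1 FPKM and Ndrg1 at 13.2, 15.2 and 15.3 FPKM. Ddit4, an inhibitor of mTOR signalling, went against the group and rose from 6.64, 6.84 and 5.65 to 27.7, 22.9 and 20.2 FPKM, with 67.4, 53.0 and 48.3 FPKM under LPS alone. Vegfa rose by 0.23 (adjusted p = 0.0478), a call that 13 of 24 alternative settings lost.

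Nuclear genes of oxidative phosphorylation were mostly not called: 1 of 44 rose and 5 fell, with a median of −0.02. The count of 5 was 13 with TPM and 19 when a trend in GC content and gene length was removed, and with a block on replicate number 8 rose. Ndufs4 rose by 0.43, and Atp5a1, Uqcrc2 and Ndufb8 fell by 0.37, 0.29 and 0.57. Of the 13 mRNAs encoded in the mitochondrion itself 7 fell and 0 rose (median −0.33). ND1 went from 10264, 9412 and 7362 to 4324, 4248 and 3967 FPKM and CYTB from 6328, 6097 and 5219 to 3446, 3446 and 3407 FPKM, and ND2 and ND4L fell by 0.79 and 0.95. Together these mRNAs took 11.0 to 11.9% of all FPKM at rest and 7.26 to 7.72% after both agents.

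Most genes that build lipids fell. Of 29 genes by which cells make or take up cholesterol 20 were lower and 1 was higher, with a median of −0.58, and of 19 genes of fatty acid synthesis and desaturation 14 fell and 2 rose, with a median of −0.71. Scd2, a desaturase of stearic acid, fell from 235, 277 and 285 to 58.0, 64.0 and 60.4 FPKM (log2 change −2.10, adjusted p = 3.55e-08). With LPS alone it stood at 179, 184 and 179 FPKM and with the antibody alone at 117, 161 and 144 FPKM, both between the resting and the doubly treated level. Its sister gene Scd1 fell from 39.4, 47.0 and 48.0 to 10.3, 10.8 and 9.25 FPKM. Fads2, a further desaturase, and Me1, which supplies reducing power, fell by 1.21 and 1.42.

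In the sterol pathway Acat2, Cyp51 and Sqle fell by 0.96, 0.93 and 0.90. Npc2, a lysosomal carrier of cholesterol, was the only riser of that list, by 1.16. Of 14 genes of cholesterol efflux 6 fell and 0 rose (11 fell with the block and the GC and length trend together), among them the exporter Abcg1, from 16.0, 16.9 and 15.9 to 3.98, 4.37 and 3.81 FPKM, the acid lipase Lipa by 1.14 and Apoe by 1.14. Uptake and storage of fatty acids, the list to which Cd36 belongs, had 10 of 24 genes higher and 2 lower. Gpat3, which starts triglyceride synthesis, and Abhd5, which helps to break triglycerides down, rose by 1.50 and 0.98, while the phosphatases Lpin1 and Lpin2 fell by 0.69 and 1.42. Of 24 genes of fatty acid oxidation 10 fell and 4 rose, close to the 35.1% lower and 17.9% higher over all genes. Cpt1a, which admits fatty acids to the mitochondrion, Hadh and Acaa2 fell by 0.84, 1.02 and 1.14, and the nuclear receptor Ppard rose by 1.07.

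Stress programmes differed from each other. The integrated stress response, in which the factor ATF4 induces amino acid synthesis and transport, rose in 21 of 27 genes and fell in 2, with a median of 1.09. Chac1, which degrades glutathione, rose from 1.94, 1.83 and 1.61 to 16.4, 16.0 and 13.6 FPKM and Nupr1 from 7.37, 6.28 and 6.77 to 31.3, 29.7 and 31.2 FPKM, and Pck2 and Gadd45a rose by 1.57 and 1.81. Of the kinases that start the response, Eif2ak3 and Eif2ak1 fell by 0.35 and 0.38, while Eif2ak4 (log2 change −0.35, adjusted p = 0.0667) and Eif2ak2 (0.07, adjusted p = 0.801) were not called. The unfolded protein response of the endoplasmic reticulum stayed mixed, with 3 of 22 genes higher (7 with median-of-ratios scaling), 5 lower and 14 not called. Herpud1 rose by 0.81 and Xbp1, a factor of that response, fell by 0.39.

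Of 25 NRF2 and antioxidant genes 11 rose and 7 fell. Hmox1, which breaks down haem, rose from 72.0, 68.1 and 57.4 to 441, 454 and 441 FPKM and Prdx5, a peroxidase, from 49.6, 39.8 and 32.4 to 302, 267 and 248 FPKM. Sqstm1 and Srxn1 rose by 1.63 and 1.13, and catalase (Cat) and Gpx1 fell by 0.35 and 0.78. Of 17 heat shock genes 14 were not called. Hspa8, the constitutive chaperone, rose by 0.66, and Hspa1b, the inducible one, fell from 8.19, 8.49 and 6.56 to 2.50, 1.90 and 2.21 FPKM. Dnajb1 fell by 0.34, with an adjusted p of 0.0471 that 11 of 24 alternative settings took over the threshold.

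Of 36 lysosomal genes 17 fell and 9 rose, with a median of −0.12, and with median-of-ratios scaling 11 fell. The cathepsin gene Ctsl rose from 76.1, 76.3 and 73.8 to 167, 176 and 182 FPKM and Ctsh fell from 11.5, 10.6 and 8.86 to 2.02, 2.06 and 1.90 FPKM, so members of 1 family went opposite ways. Atp6v0a1, a subunit of the proton pump, rose by 0.72. Of 27 autophagy genes 10 fell (6 with median-of-ratios scaling) and 4 rose, near the shares over all genes of 35.1% lower and 17.9% higher. Of 24 transcription factors of the macrophage lineage 5 rose and 9 fell, again near the shares over all genes, and Spi1, the master factor, was not called (88.6 ± 3.14 FPKM against 76.9 ± 11.7). Cebpd and Ets2 rose by 2.24 and 1.06 and Nfatc1 fell by 1.11. Of 21 macrophage markers 13 rose and 3 fell. Itgam, the alpha chain of complement receptor 3, rose from 4.44, 5.94 and 6.13 to 27.6, 31.0 and 32.0 FPKM, and Fcgr1 and Aif1 by 1.02 and 1.17. Of 12 genes known from osteoclasts, a fate open to this line, 3 rose and 4 fell, also near the shares over all genes. Among them Jdp2 was higher by 0.89 and Atp6v0d2, a proton pump subunit, lower by 1.77.

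Cells that divide copy their DNA and then part it on the spindle, and genes of both steps fell. All 52 tested genes of mitosis and the spindle fell, 47 of them at least 2-fold, with a median of −1.60 and a range of −2.45 to −0.57. Ccna2, which encodes cyclin A2, fell from 64.8, 66.4 and 68.3 to 16.2, 15.6 and 15.5 FPKM (log2 change −2.01 ± 0.07 SE, adjusted p = 7.89e-10). Foxm1, the factor that drives mitotic genes, fell from 18.3, 18.5 and 18.5 to 4.55, 4.68 and 4.70 FPKM. Cenpa, the histone of the centromere, went from 33.3, 30.7 and 27.8 to 9.80, 8.73 and 8.90 FPKM, and Ncapd2, a condensin subunit, from 29.5, 34.2 and 34.7 to 9.44, 9.46 and 9.23 FPKM. Replicates lay close together in all 4 genes, and the treated ones were far below the resting ones. The summed level of the 52 genes was 1648 to 1789 FPKM at rest, 1621 to 1639.8 with the antibody alone, 513 to 585 with LPS alone and 548 to 572 with both.

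DNA replication genes fell in 38 of 40 cases and rose in 0, with a smaller median of −0.83. Mcm7, part of the replicative helicase, fell from 81.8, 79.5 and 71.9 to 34.4, 33.0 and 32.3 FPKM, and Lig1 and Chaf1a fell by 1.19 and 0.90. Genes of homologous recombination and Fanconi repair fell in 28 of 32 cases and rose in 0 (median −0.76), with Fanca, Rad51ap1, Rad54l and Xrcc2 lower by 1.00, 0.93, 0.89 and 0.69. The genes that govern entry into the cycle were mixed, with 6 of 30 higher and 16 lower. Cdkn1a, which encodes the cycle inhibitor p21, rose from 47.3, 46.2 and 38.6 to 211, 202 and 200.2 FPKM and Gadd45b from 6.51, 5.04 and 4.36 to 47.5, 46.8 and 46.2 FPKM, and Ccnd2 rose by 1.11. Of 2 tested histone genes of the replication-dependent class, H1f2 fell by 0.48 and H2bc4 was not called.

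**Figure D3:**
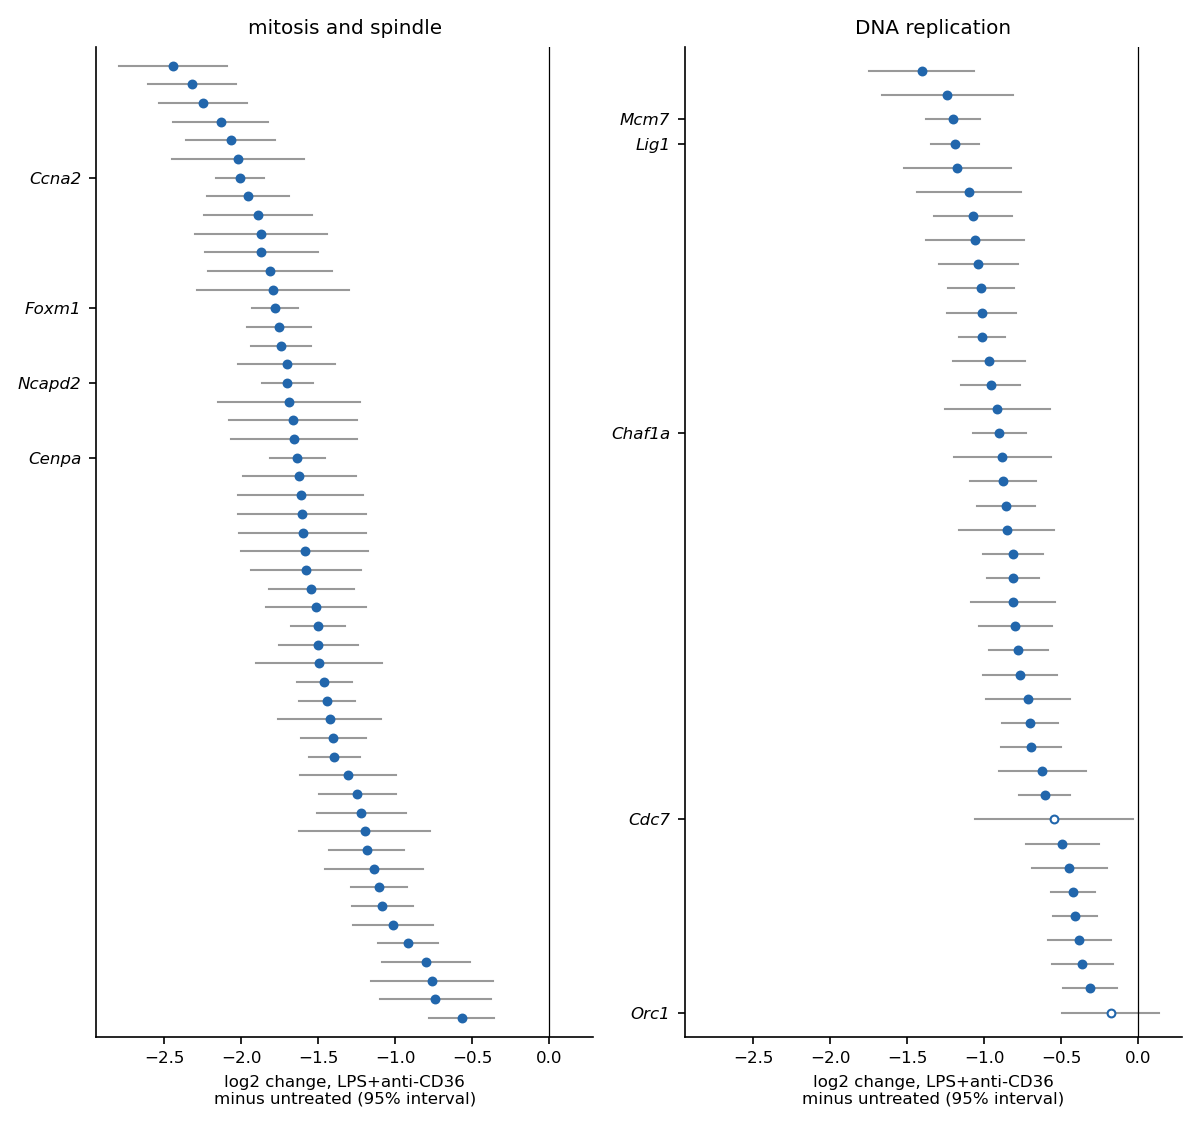
Log2 change in LPS+anti-CD36 against untreated cells for each tested gene of the mitosis and the DNA replication list, with its 95% interval as a grey line and filled points for called genes; the genes named in the text are labelled. All 52 mitosis genes lie left of 0, and Orc1 and Cdc7 are the 2 replication genes not called.

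The CCAAT box and the cell cycle homology region TTTGAA are known from promoters of mitotic genes. On either strand CCAAT was in 70.5% and TTTGAA in 72.7% of the 44 windows of the mitosis list. In all 8042 windows the shares were 39.5% and 12.1%, and in the 394 of genes at least 2-fold lower 48.2% and 28.7%. Of the 52 mitosis genes 47 fell at least 2-fold, and the lower set contains those of them that have a window. In the 43 windows of interferon-stimulated genes CCAAT was in 34.9% and TTTGAA in 27.9%. The windows of Ncapd2 (chr6:125191537-125191836, minus strand) and Cenpa (chr5:30666636-30666935, plus strand), 2 of the mitotic genes described above, are shown with both motifs in capitals, CCAAT here reading ATTGG on the printed strand. Ncapd2 holds 3 CCAAT matches and TTTGAA at −123 to −118. Cenpa holds 2 CCAAT matches before its start and TTTGAA after it, at 16 to 21. For Ccna2 and Foxm1, also described above, no match was recorded, whether for want of a window or of the motifs.
Ncapd2: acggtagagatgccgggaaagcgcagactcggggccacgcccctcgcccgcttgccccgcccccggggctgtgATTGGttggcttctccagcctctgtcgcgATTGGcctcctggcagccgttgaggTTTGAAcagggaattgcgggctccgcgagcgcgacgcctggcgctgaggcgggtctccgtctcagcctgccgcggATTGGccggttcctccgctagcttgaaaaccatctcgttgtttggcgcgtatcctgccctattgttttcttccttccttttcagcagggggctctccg
Cenpa: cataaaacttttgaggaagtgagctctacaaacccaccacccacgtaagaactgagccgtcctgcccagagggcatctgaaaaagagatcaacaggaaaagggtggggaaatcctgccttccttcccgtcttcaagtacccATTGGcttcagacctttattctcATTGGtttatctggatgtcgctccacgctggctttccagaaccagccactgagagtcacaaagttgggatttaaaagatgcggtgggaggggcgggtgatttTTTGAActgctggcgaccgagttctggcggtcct

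Genes of the translation machinery moved little. Of 37 ribosomal protein genes 4 rose and 0 fell, with a median of 0.20, and 14 rose with median-of-ratios scaling or with a block on replicate number. Without untreated replicate 1 the count was 7. The 4 were Rpl30, Rps2, Rps23 and Rps24, and many ribosomal protein genes have pseudogene copies that can take up their reads. Of 34 genes of ribosome biogenesis 4 rose and 4 fell (9 fell with TPM and 12 with the GC and length trend removed), with Nop56 and Rrp12 higher by 0.40 and 0.32 and Ubtf lower by 0.88. Of 26 carriers of the plasma membrane 10 rose and 10 fell. Slc15a3, a carrier of small peptides in endosomes, rose from 2.20, 2.29 and 1.79 to 71.5, 63.5 and 61.3 FPKM, and Slc43a2, which carries large neutral amino acids, fell from 5.65, 6.60 and 6.17 to 1.41, 1.44 and 1.36 FPKM. Of 30 genes of motility and the actin skeleton 16 rose and 3 fell. Marcksl1, which binds actin at the membrane, rose from 83.4, 78.4 and 58.1 to 588, 556 and 508 FPKM, Ehd1 and Rnd1 rose by 2.61 and 2.49, and Vcl, which encodes vinculin, fell by 1.07.

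The mRNAs of highest level in doubly treated cells, apart from mitochondrial and ribosomal protein genes, were Spp1, Ccl3, Eef1a1, Lyz2, Actb, Ifitm3, Odc1, Ccl4, Fth1 and Cd14. Spp1, which encodes the secreted protein osteopontin, rose from 2609.7, 2585 and 3045 to 8992, 10063 and 11822 FPKM and took 2.49 to 3.41% of all FPKM, against 0.755 to 1.01% at rest. Actb, the cytoplasmic actin often used as a reference gene, rose from 1278, 1293 and 1089 to 3278, 3238 and 3041 FPKM. Of these 10 genes Eef1a1 alone was not called (−0.12, adjusted p = 0.362). By a stricter rule of on and off, 63 genes were under 0.5 FPKM in all resting libraries and at 2 FPKM or more in all doubly treated ones, led by Csf3, Cxcl2, Il1b, Il1a, Timp1 and Csf2, and 8 showed the reverse. Of those 8, Prss35 had 6.03, 7.22 and 7.14 FPKM at rest and 0.315, 0.101 and 0.298 FPKM after treatment. Angpt2, a ligand of blood vessel receptors, had 4.36, 4.02 and 3.25 and 0.257, 0.303 and 0.435 FPKM. Klhl30, Nlrp10, Neurl1b and Gpr176 fell by 2.09, 1.78, 1.63 and 1.67.

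Scel, the gene of sciellin, fell from 14.4, 16.2 and 22.4 to 0.531, 0.665 and 0.797 FPKM (log2 change −3.47, adjusted p = 7.5e-09), with 1.78, 2.38 and 2.87 FPKM under LPS alone. Slc5a3, the inositol carrier, fell from 30.3, 38.4 and 64.0 to 4.51, 4.72 and 5.93 FPKM and Ranbp3l from 63.7, 67.7 and 99.2 to 8.44, 9.55 and 12.4 FPKM, both with their highest resting value in replicate 3. Cldn11, a tight junction protein, fell from 101, 98.6 and 89.4 to 13.7, 13.3 and 13.8 FPKM and Ndrg4 from 41.4, 43.4 and 38.9 to 5.40, 4.98 and 4.99 FPKM. Kbtbd11, Serpinb8 and Gucy2g fell by 2.54, 2.68 and 2.54.

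The doubly treated state was also set against LPS alone, which tests whether the change from the resting level differed with the antibody present, since both changes share the untreated libraries. Of 10276 genes 1590 differed (15.5%), 754 higher and 836 lower in doubly treated cells, with a median of 0.02. This count depended on single libraries: it was 3977 without LPS replicate 1, 582 without LPS replicate 2, 743 without LPS replicate 3, and 639, 590 and 848 without LPS+anti-CD36 replicate 1, 2 and 3. LPS replicate 1 lay farthest from its group of all 12 libraries, with a root mean square of 0.249. Against the antibody alone 4882 genes differed (47.5%), 1670 higher and 3212 lower.

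Of the hypoxia-inducible factor list 23 of 27 genes were lower in doubly treated than in LPS cells and 0 higher (median −0.84), and of the glycolysis list 15 of 24 were lower and 0 higher (median −0.47). Leaving out any 1 library gave 17 to 23 lower genes for the first and 12 to 15 for the second. The higher genes were then 0 to 2 for the first and 0 to 1 for the second. With a block on replicate number 2 and 1 were higher. Bnip3 and Ndrg1 differed by −2.46 and −2.08 (adjusted p = 2.62e-07 and 2e-07). Ak4, an adenylate kinase of mitochondria, was at 37.5, 42.0 and 39.7 FPKM with LPS and at 11.6, 13.1 and 13.8 FPKM with both, and Mgarp, another mitochondrial protein, at 4.49, 3.95 and 3.56 and 0.394, 0.408 and 0.587 FPKM. Slc2a1 and Vegfa, which rose against rest, were lower than with LPS alone by 0.91 and 1.06. Arrb1, a regulator of receptor signalling, and Ephx1, a detoxifying enzyme, were lower by 1.49 and 1.26.

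In the other direction stood secreted genes: 12 of 14 chemokines and 14 of 24 cytokines were higher with both agents than with LPS alone, against 0 and 2 lower. The 12 chemokines were 14 without LPS replicate 1, 7 without LPS replicate 2 and 8 without LPS replicate 3 or any 1 doubly treated library. When 1 of these libraries was left out the chemokine median stayed between 0.51 and 0.62, and it was 0.42 with the GC and length trend removed. The 14 cytokines were 18, 11 and 13 without LPS replicate 1, 2 and 3, and 10 with TPM, with 3 lower. The cytokine median was 0.43, or 0.25 with the GC and length trend removed. Csf2 was at 34.9, 33.4 and 34.3 FPKM with LPS and at 69.8, 71.5 and 68.2 FPKM with both (difference 1.01, adjusted p = 3.43e-06), and Cxcl2 at 467, 402 and 405 and 1138, 1036 and 934 FPKM. Timp1 and Lcn2 differed by 2.21 and 2.01. Akap12, a scaffold of protein kinase A, was low with LPS alone, at 0.202, 0.174 and 0.211 FPKM, and in untreated cells, at 0.0220, 0.0494 and 0.0658 FPKM, and stood at 3.55, 3.63 and 4.14 FPKM with both. Gstt4, a glutathione transferase, and Cstdc4, of the cystatin family, were higher by 1.08 and 1.39. The mitosis list had 2 genes higher and 1 lower of 52 (median 0.03), or 12 and 10 without LPS replicate 1, 12 and 5 with a block on replicate number, 14 and 2 with the GC and length trend removed and 17 and 2 with both. The interferon-stimulated list had 4 higher and 10 lower of 55 (median −0.18), with 9 and 22 without LPS replicate 1, 1 and 0 without replicate 2 and 2 and 3 without replicate 3.

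**Figure D4:**
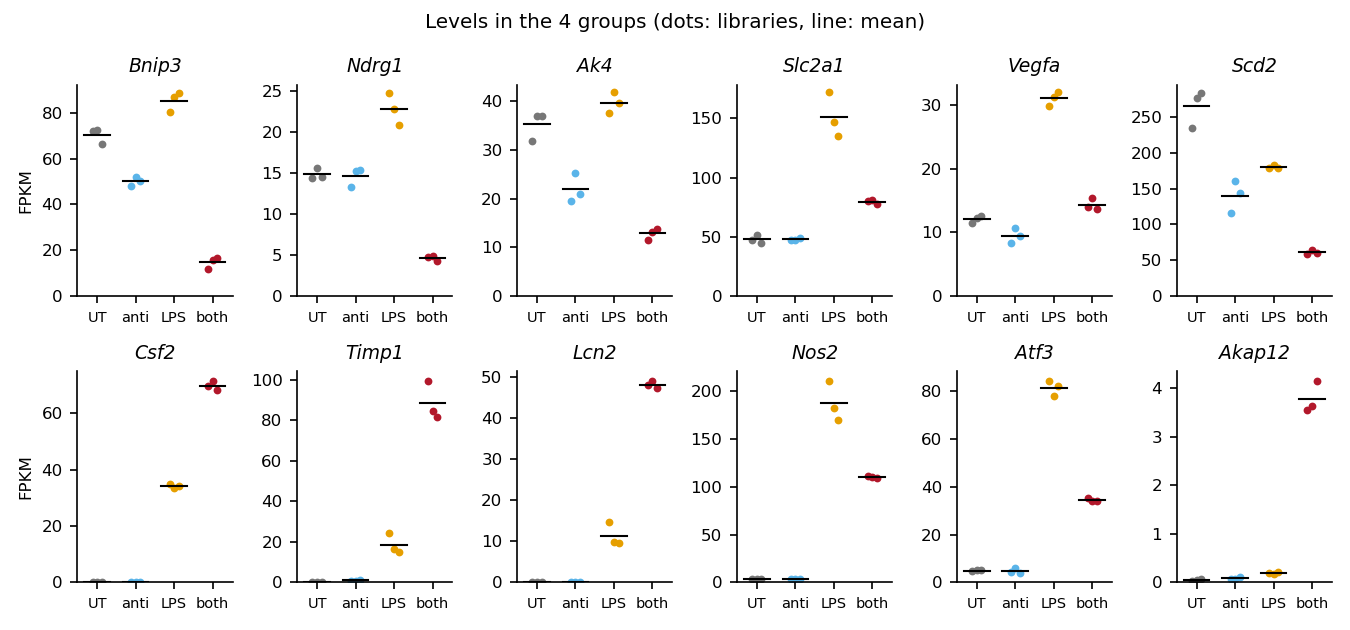
FPKM in the 3 libraries of each group (UT untreated, anti the antibody alone, LPS, and both) for 12 genes, with the group mean as a line and every axis starting at 0. Bnip3, Ndrg1, Ak4 and Scd2 are lowest with both agents, Slc2a1, Vegfa, Nos2 and Atf3 lie between rest and LPS alone, and Csf2, Timp1, Lcn2 and Akap12 are highest with both.

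**Figure D5:**
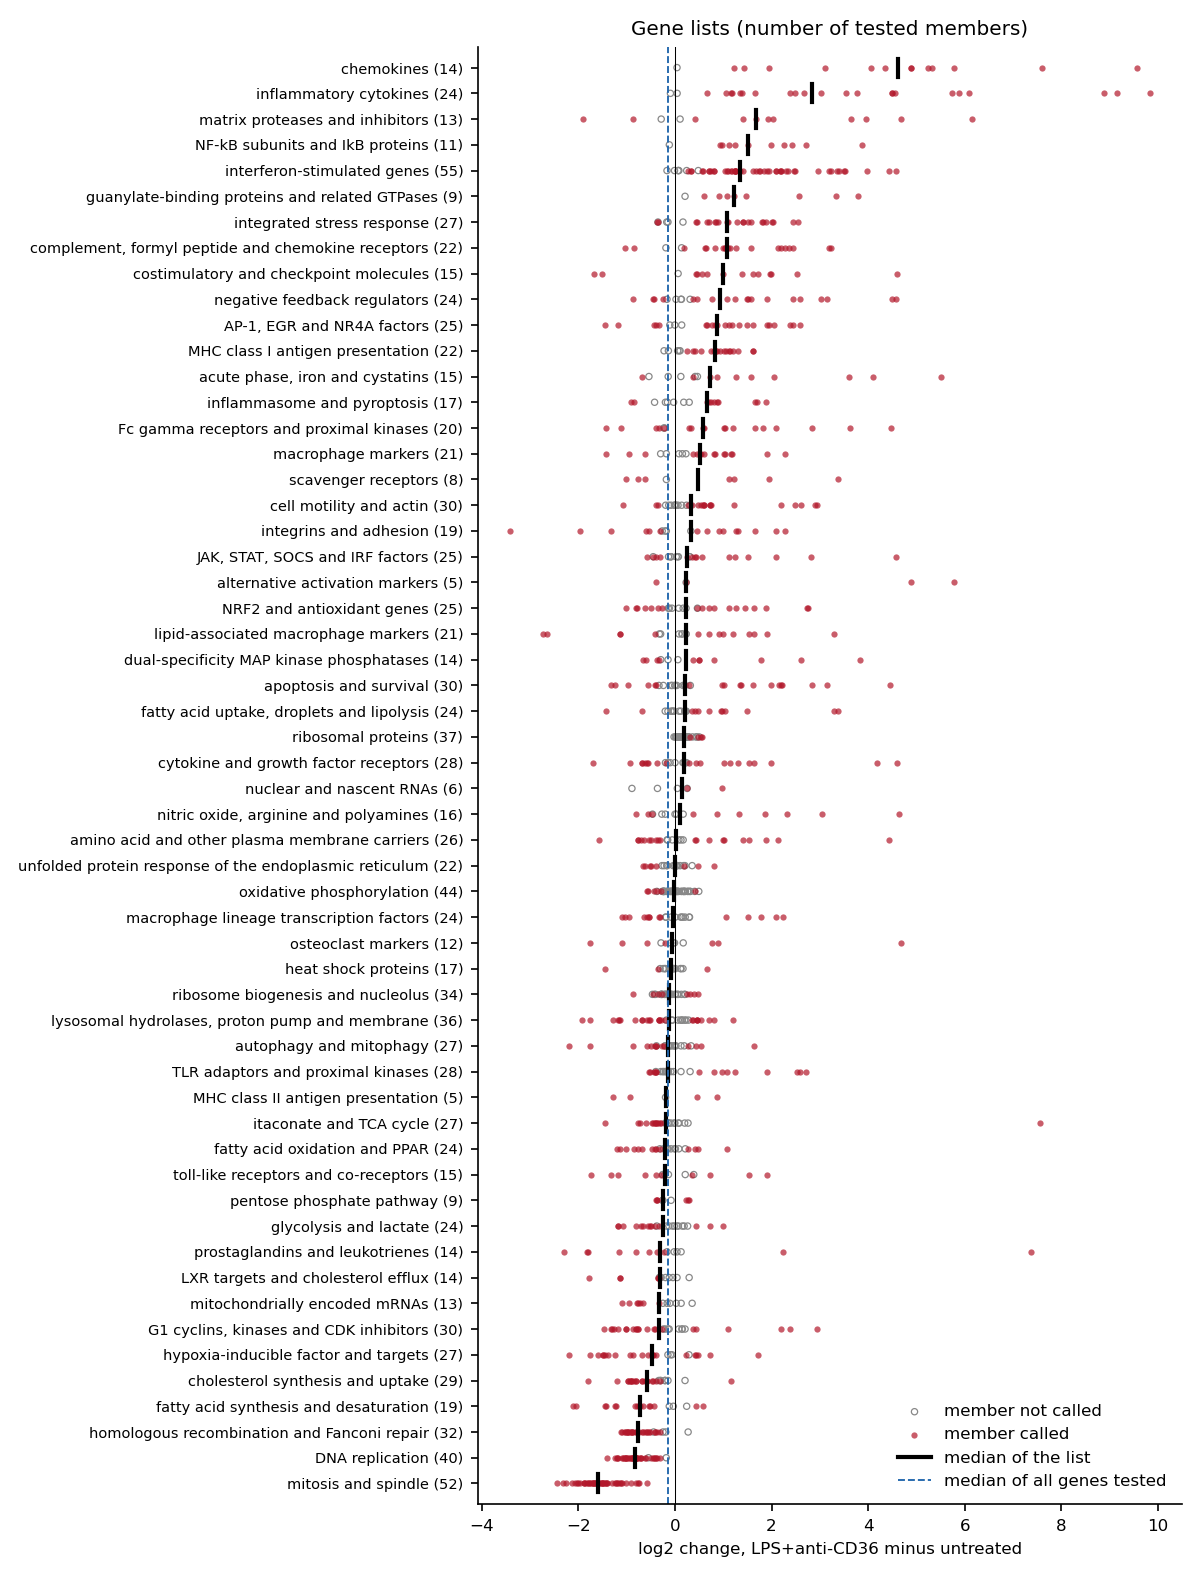
Log2 change in LPS+anti-CD36 against untreated cells for every tested member of the lists with at least 3 tested genes, ordered by the median of the list (black line). The medians run from −1.60 for mitosis and spindle to 4.61 for chemokines, and the dashed line is the median of all genes, −0.14.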

How the data were processed

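Total RNA was taken with Trizol from the 12 samples and sequenced from Illumina libraries, per the labels' protocols. The authors deposited 1 table of FPKM values for 31801 entries. HISAT2 2.0.5 and the builds mm39 and hg38 are named, without their roles, in the submitters' processing notes; the counter and annotation are not given in the sources used here. With gene lengths from GENCODE M21, 94.5% of 17671 genes gave whole fragment numbers (tolerance 0.005), from which depths were recovered; no count test was run. Depth limits the genes near 0 FPKM. For 82 repeated entries the one of highest mean was kept.

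The 4 groups of 3 were fitted together on log2(FPKM + 1) with limma 3.58.1 (R 4.3.3), with an intensity trend, two-sided, without a block on replicate number. The script was tested on simulated data. The genes and the 65 lists were chosen with earlier results of these data known. Genes were named by rule: 6 chosen genes; the 12 largest called risers and fallers with groups that do not overlap and a mean of at least 2 FPKM; in each list up to 4 called members of smallest p and up to 2 that moved against the majority; 6 per direction against LPS; the 10 of highest level; and 6 per direction of the on and off genes. A few genes that the rule names are not reported here. Tlr2, Myd88, Rela, Spi1, Eif2ak2 and Eif2ak4, genes not called that complete small lists or counts, and markers of other cell types were named after their values were seen. Alternatives changed the pseudocount (0.1, 0.5), filter, trend, scaling, block, a trend in GC content and length, the groups fitted, and left out each library. The counts of 6 lists against LPS under these alternatives were added after seeing the data.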

Additional observations from a re-analysis of the deposited data

How the results depend on the processing

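Of the 6683 values that 24 alternatives gave for 280 named genes, 6572 kept their direction and their side of the threshold, 108 were no longer called, 2 became called and 1 changed sign. That was Eef1a1, not called at −0.12, which stood at 0.0445 with median-of-ratios scaling (adjusted p = 0.742 by limma). Of the 280 genes 255 lost no call and kept their sign. The number of genes called against untreated cells was 5442, ran from 4554 (without LPS+anti-CD36 replicate 1) to 5999 (without LPS replicate 1) when 1 library was left out, and was 5588 from the 2 groups alone. The 508 genes at least 2-fold lower were 843 with a pseudocount of 0.1 and 994 with TPM. Against LPS alone the 1590 genes called were 582 to 3977 when 1 library was left out, 939 from the 2 groups alone and 2558 with the GC and length trend removed; the cause was not tested.

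Same-numbered untreated and doubly treated libraries deviated from their group means with correlations of 0.49, 0.04 and 0.54. For libraries of different numbers the correlations ran from −0.53 to 0.21. The numbers were not taken as pairs because the labels do not say what a replicate number stands for. With a replicate block 6474 genes were called against untreated cells and 3645 against LPS, and with the block and the GC and length trend together 7176 and 3569.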
